A study of Mus musculus with 3 samples.

Results

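The 8 genes described here encode the pore-forming alpha1 subunits of the high-voltage-activated calcium channels of neurons, Cacna1a, Cacna1b, Cacna1c, Cacna1d and Cacna1e, and the auxiliary alpha2delta subunits Cacna2d1, Cacna2d2 and Cacna2d3. They were taken by symbol from the feature lists, which hold 32285 genes, and all 8 were found. High-voltage-activated calcium channels open on strong depolarisation and couple electrical activity to calcium entry. The P/Q-type channel of Cacna1a and the N-type channel of Cacna1b trigger transmitter release at hippocampal synapses, the L-type channels of Cacna1c and Cacna1d feed calcium signals to the nucleus and pace firing, and the R-type channel of Cacna1e contributes to dendritic calcium entry, bursting and release. The alpha2delta proteins are extracellular, membrane-anchored subunits that carry these channels to the cell surface and the terminal. Gabapentin and pregabalin, used in epilepsy and pain, bind the proteins of Cacna2d1 and Cacna2d2, and loss of Cacna1a or Cacna2d2 causes ataxia and absence seizures in mice.

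The nuclei came from the hippocampus of 3 adult female mice, all labelled Scn8aD/+ and post-onset, that carry 1 copy of a D allele of the sodium channel gene Scn8a. Each mouse is 1 library and carries a batch number of its own, so that mouse and batch cannot be told apart. The mice form 1 group and control animals are not analysed here, so every comparison lies between classes of nuclei of the same 3 mice and none bears on the mutation. Counts per gene do not tell the alleles of Scn8a apart.

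The libraries of mice 1, 2 and 3 held 8863, 13904 and 4659 barcodes with a median of 8859, 1711 and 25775 UMIs (unique molecular identifiers, each counting 1 captured RNA molecule), and 7890, 11816 and 4401 nuclei were kept. The libraries shared 13 to 36 barcodes pairwise and none in all 3. Nuclei were clustered without the 8 genes and the other listed genes, and 19 classes were named from marker genes, which is why each name carries "-like". Of the 36 clusters, 18 held at least 80% of their nuclei from 1 mouse, so that a class is often a different cluster in each mouse. The hippocampal classes of the tissue label were found, with 1834, 264 and 1311 granule-like, 921, 175 and 507 CA1-like and 266, 348 and 196 CA3-like nuclei in mice 1, 2 and 3. Depth differed by class in mouse 2, with medians of 12552 UMIs in granule-like, 19065 in CA1-like and 5745 in CA3-like nuclei. The granule-like and CA1-like nuclei of mouse 2 lay largely in clusters held mostly by mouse 1. In mouse 2, 4708 nuclei stayed unnamed, against 309 in mouse 1 and 44 in mouse 3. Granule markers scored best in the largest unnamed cluster, with 2691 nuclei of mouse 2, but below the naming limits. Whether the named granule-like nuclei of mouse 2 stand for all of them was not tested. The 8 glutamatergic markers summed to 23.1, 61.6 and 23.6% of their glutamatergic-like level in glia-like nuclei of mice 1, 2 and 3, and to 20.3, 48.5 and 23.2% in inhibitory-like nuclei, and none of the markers was at 0 there. Mouse 2, the shallowest library, stood apart in this measure, and results of the 8 genes that rest on glia-like nuclei are given with and without it.

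A level is given in CPM, the UMIs of a gene per 1000000 UMIs of all nuclei of a class in a mouse, for classes of at least 20 nuclei in that mouse. Errors over mice are SD with n = 3 unless stated. Neuron-like nuclei pool the glutamatergic and inhibitory classes and leave out Cajal-Retzius-like nuclei. Per kilobase of gene span, neuron-like levels were highest for Cacna1a at 2.29 ± 0.297 CPM per kb and Cacna2d1 at 1.90 ± 0.278. Cacna1e followed at 1.43 ± 0.0755, Cacna1c at 1.41 ± 0.328, Cacna1b at 1.25 ± 0.127, Cacna2d3 at 1.04 ± 0.0873, Cacna1d at 0.736 ± 0.240 and Cacna2d2 at 0.162 ± 0.0494 CPM per kb. The intervals of mean ± SD of neighbours in this order overlapped except between Cacna2d1 and Cacna1e, and Cacna1d and Cacna2d2, the lowest of the 8. The sources used here do not state if introns were counted, so the span is 1 of several possible lengths.

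The alpha2delta genes differed most between classes. Over all classes the patterns of Cacna2d1 and Cacna2d3 were not opposite (Pearson's r = -0.087), but Lamp5-like and Sst-like nuclei lay at opposite ends for these genes. Lamp5-like nuclei held the highest Cacna2d1 level of any inhibitory class and the lowest Cacna2d3 level of all 19 classes, while Sst-like nuclei held the lowest Cacna2d1 level and one of the highest Cacna2d3 levels. The 250 bases before the RefSeq start of these genes are shown for this reason, 5′ to 3′ on the strand of the gene, on build GRCm38.p6 (mm10). Capitals mark the GC box, GGGCGG on either strand, the motif bound by Sp1-family factors.
Cacna2d1 promoter, chr5:15934441-15934690, plus strand: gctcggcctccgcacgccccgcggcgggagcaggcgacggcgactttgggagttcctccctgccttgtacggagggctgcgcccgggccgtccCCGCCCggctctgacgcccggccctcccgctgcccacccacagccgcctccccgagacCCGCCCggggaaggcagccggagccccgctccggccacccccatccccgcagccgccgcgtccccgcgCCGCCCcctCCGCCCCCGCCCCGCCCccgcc
Cacna2d3 promoter, chr14:29721865-29722114, minus strand: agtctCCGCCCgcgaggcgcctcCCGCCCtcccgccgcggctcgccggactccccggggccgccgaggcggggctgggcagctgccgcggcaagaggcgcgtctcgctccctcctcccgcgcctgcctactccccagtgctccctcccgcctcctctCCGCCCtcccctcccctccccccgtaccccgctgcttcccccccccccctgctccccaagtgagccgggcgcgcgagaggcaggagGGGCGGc
The Cacna2d1 window held 6 GC boxes, 36 CpG sites and 82.4% G and C, and the Cacna2d3 window held 4 GC boxes, 30 CpG sites and 80% G and C. A GC box was found in 32.7% of the 32851 RefSeq windows of this length, whose median G and C content was 52.4%. Neither window held TATAAA, which 12.4% of the windows hold, or the cAMP response element TGACGTCA, which 1.55% hold. Both windows thus hold several copies of the same motif although the genes differ in their classes. Their G and C content was above that of 99.4% (Cacna2d1) and 98.8% (Cacna2d3) of the windows. Windows of the other genes held from 0 GC boxes, as in Cacna1e, to 6, in a Cacna1c window, so the motif is not particular to Cacna2d1 and Cacna2d3. A match describes letters and is neither a site nor a cause.

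On mm10 the 5 alpha1 genes lie at chr8:84388440-84640246 on the plus strand (Cacna1a) and, on the minus strand, at chr2:24603887-24763152 (Cacna1b), chr6:118587240-119196418 (Cacna1c), chr14:30039939-30491455 (Cacna1d) and chr1:154390731-154884501 (Cacna1e). The alpha2delta genes lie at chr5:15934691-16374511 and chr9:107399612-107529343 on the plus strand (Cacna2d1 and Cacna2d2) and at chr14:28904943-29721864 on the minus strand (Cacna2d3). Genes on the opposite strand lie inside or across 6 of the spans and are in the feature lists, among them Lrtm1 and Gm48003 in Cacna2d3 and Gm16183 in Cacna1a. Use of strand in the counting is likewise not stated there, so reads of such pairs may be shared.

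**Figure D1:**
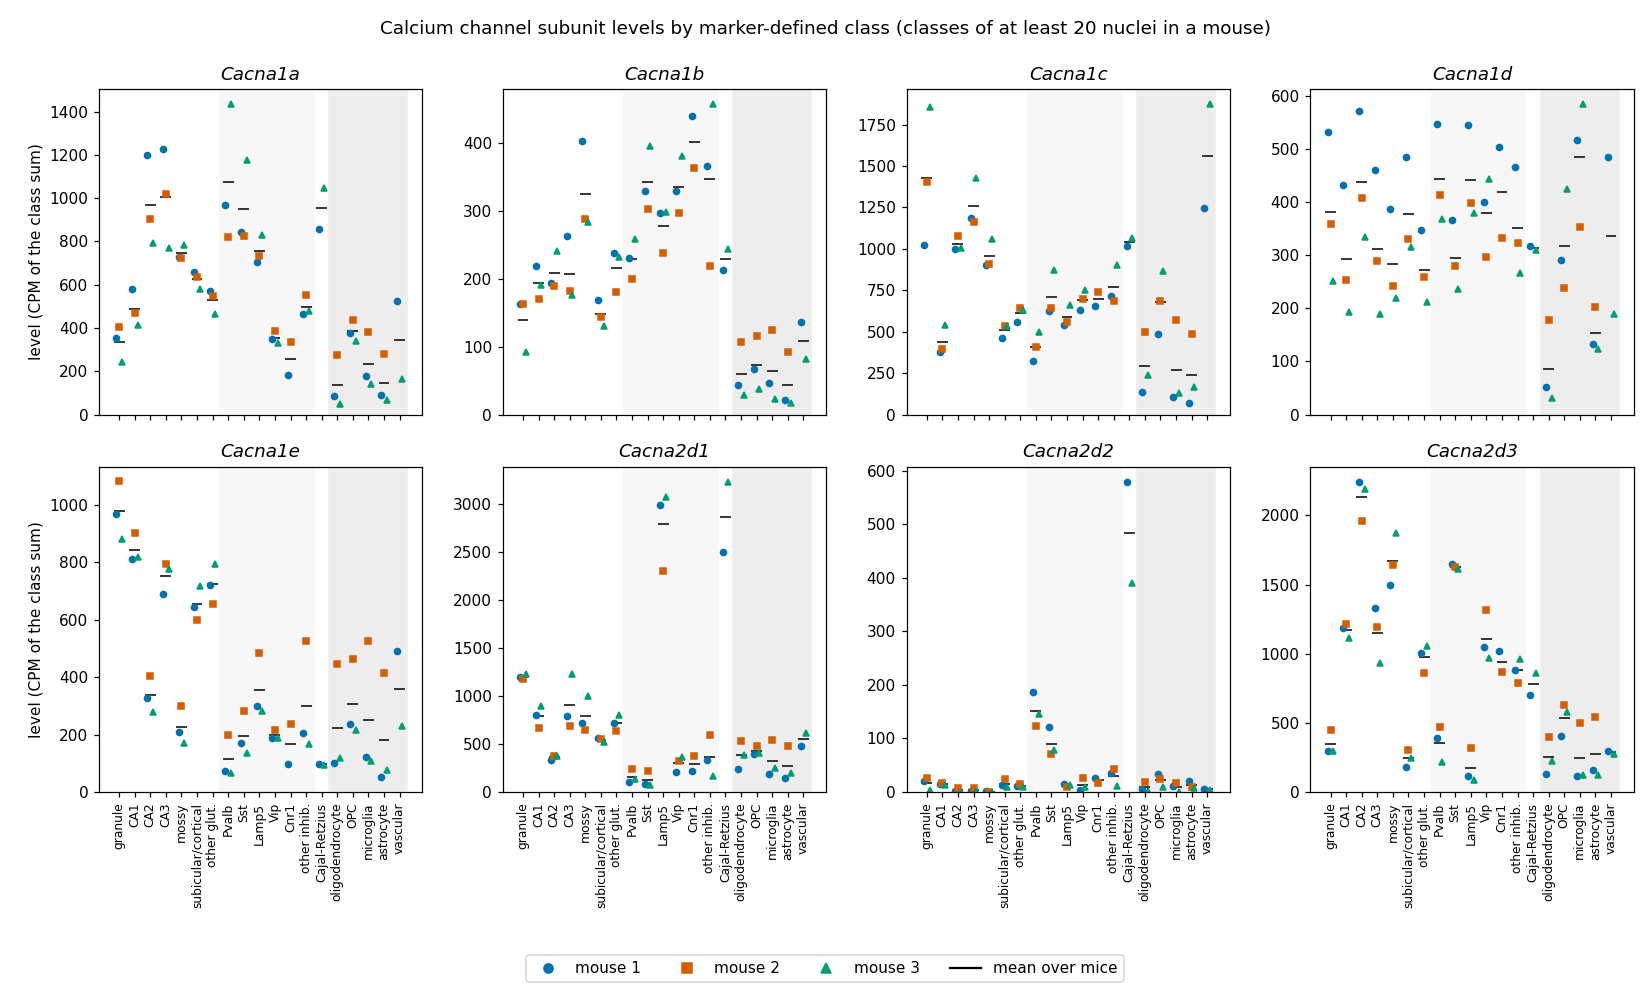
Levels of the 8 genes in CPM (linear axes from 0) in each class of at least 20 nuclei, with a point for each mouse and a bar for the mean over mice. Darker shading marks glia-like and vascular-like classes and lighter shading inhibitory classes. Cacna2d1 stands out in Lamp5-like and Cajal-Retzius-like nuclei, Cacna2d2 in Cajal-Retzius-like and Pvalb-like nuclei, and mouse 2 lies highest of the mice in most glia-like classes.

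Cacna1a, the P/Q-type pore, was highest in Pvalb-like nuclei, at 970.4, 822 and 1435 CPM in mice 1, 2 and 3, and in CA3-like nuclei, at 1225, 1021 and 771 CPM. CA2-like, Cajal-Retzius-like and Sst-like nuclei followed, and the ranges of these 5 classes over mice overlapped from one to the next. Granule-like nuclei held 353, 402 and 243 CPM, the lowest of the glutamatergic classes, and Cnr1-like nuclei 182 and 333 CPM in mice 1 and 2, the lowest of the inhibitory ones. The highest class mean was 7.79 times the lowest, that of oligodendrocyte-like nuclei, and 16 of the 18 neighbouring pairs in the order of class means had overlapping ranges. The order of the mice was not the same in all classes. Mouse 3 had the highest level of the mice in Pvalb-like and Sst-like nuclei and the lowest in CA3-like and granule-like nuclei.

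Cacna1b, the N-type pore, was highest in inhibitory classes. Cnr1-like nuclei, a class that includes Cck basket cells, whose terminals are known to rely on N-type channels, held 440.3 and 363 CPM in mice 1 and 2. Sst-like nuclei held 329, 303 and 396 CPM, Vip-like nuclei 329, 297 and 381 CPM and Pvalb-like nuclei 231, 199.7 and 258 CPM in mice 1, 2 and 3. Both mice with enough Cnr1-like nuclei exceeded every Pvalb-like value, while for Cacna1a every Pvalb-like value exceeded both Cnr1-like values. The same held for Vip-like nuclei, with Cacna1a at 347, 384 and 331 CPM in mice 1, 2 and 3. Sst-like nuclei, high in Cacna1b, were also high in Cacna1a, at 845, 825 and 1176 CPM. Pvalb-like nuclei were not tested against Cnr1-like or Vip-like nuclei. Among glutamatergic classes, mossy-like nuclei were highest with 403, 288 and 283 CPM and granule-like nuclei lowest with 162, 163 and 91.97 CPM. The ranges overlapped in 17 of 18 neighbouring pairs, so the order carries little beyond its ends.

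Cacna1c, the L-type pore of heart, vessels and brain, was highest in vascular-like nuclei, with 1247 and 1874 CPM in mice 1 and 3, the mice with at least 20 such nuclei. Among neurons it was highest in granule-like nuclei, at 1024, 1400.5 and 1859 CPM in mice 1, 2 and 3, and in CA3-like nuclei, at 1188, 1162 and 1428 CPM. CA1-like nuclei held 376, 395 and 538 CPM and Pvalb-like nuclei 322, 409 and 500.4 CPM, the lowest of the neuronal classes. In granule-like nuclei mouse 3 was the highest of the mice for Cacna1c and the lowest for Cacna1a and Cacna1d.

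Cacna1d, the L-type pore that opens at lower voltage and paces firing, was the most even of the 8 genes. Its highest class mean was 5.60 times its lowest, and 17 of 18 neighbouring pairs overlapped. The highest mean was that of microglia-like nuclei, at 517, 354 and 586 CPM in mice 1, 2 and 3. Pvalb-like nuclei held 548, 413 and 368 CPM, all neuron-like nuclei together 451, 307 and 238 CPM and oligodendrocyte-like nuclei 51.05, 177 and 31.6 CPM. The microglia-like level was thus 114.6, 115.1 and 246.0% of the neuron-like level of the same mouse, while in those nuclei the summed glutamatergic markers reached 30.8, 65.4 and 33.8% of their glutamatergic-like level. With every nucleus thinned to 1000 UMIs, 36.4, 28.8 and 41.5% of microglia-like nuclei had a Cacna1d UMI, against 5.45, 18.5 and 3.90% of oligodendrocyte-like nuclei. Without thinning the shares were 62.1, 43.3 and 83.6% in microglia-like nuclei and 13.2, 25.2 and 18.6% in oligodendrocyte-like nuclei. The median depth was 2474, 1430.0 and 6350.0 UMIs in microglia-like nuclei and 2879, 1412 and 6090.0 UMIs in oligodendrocyte-like nuclei. Thinning left out 232, 2667 and 0 nuclei of mice 1, 2 and 3 that held fewer UMIs. Microglia were in no planned comparison with another single class, so this difference has no test.

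Cacna1e, the R-type pore, was highest in granule-like nuclei, at 967, 1081 and 882 CPM, and in CA1-like nuclei, at 811, 901 and 819 CPM. CA3-like nuclei held 689.6, 793 and 775 CPM, whereas 2 other glutamatergic classes of the hippocampus stood far lower, with 326, 405 and 279 CPM in CA2-like and 211, 299 and 172 CPM in mossy-like nuclei. The ranges of CA2-like and mossy-like nuclei did not reach that of CA3-like nuclei. Pvalb-like nuclei held 73.3, 199 and 67.7 CPM, and mouse 2 had the highest value of the mice in every inhibitory class. The oligodendrocyte-like level was 102, 444 and 119 CPM, so that in mice 1, 2 and 3 Pvalb-like nuclei held less of this RNA than oligodendrocyte-like ones.

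Cacna2d1, the gabapentin receptor subunit that also binds thrombospondins, reached 2994, 2303 and 3072 CPM in Lamp5-like nuclei, which include neurogliaform and ivy types, and 2502 and 3235 CPM in Cajal-Retzius-like nuclei of mice 1 and 3. The next class, granule-like, held 1196, 1174 and 1229 CPM and did not overlap with them. Sst-like nuclei held 86.5, 222 and 76.2 CPM and Pvalb-like nuclei 100.5, 238 and 132 CPM, the 2 lowest class means. At 1000 UMIs per nucleus, 83.2, 75.6 and 92.98% of Lamp5-like nuclei had a Cacna2d1 UMI, against 5.96, 20.1 and 9.33% of Sst-like nuclei and 20.6, 40.6 and 30.00% of oligodendrocyte-like nuclei. Pvalb-like nuclei had 7.14, 27.3 and 9.20%. Without thinning the shares were 100.0, 90.8 and 100.0% in Lamp5-like, 43.05, 47.1 and 76.00% in Sst-like and 44.7, 53.9 and 83.4% in oligodendrocyte-like nuclei, at median depths of 11931, 2025 and 31654 UMIs in Lamp5-like and 13707, 2641 and 36536 UMIs in Sst-like nuclei. Thinned, Sst-like and Pvalb-like nuclei lay below the oligodendrocyte-like share in every mouse. How much of the oligodendrocyte-like share comes from other cells was not tested. CA2-like nuclei, with 335, 377 and 373 CPM, were the lowest glutamatergic class.

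Cacna2d2 was high in 3 classes. Cajal-Retzius-like nuclei, the early-born Reln neurons of the outer molecular layer, held 579 and 390.3 CPM in mice 1 and 3, from 106 and 83 UMIs. Pvalb-like nuclei held 187, 124 and 146 CPM and Sst-like nuclei 122, 71.1 and 79.1 CPM in mice 1, 2 and 3, and none of these 3 class ranges overlapped the next in order. All other class means were at or below that of other inhibitory nuclei, 29.2 ± 16.6 CPM, with 15.4, 9.55 and 12.2 CPM in Lamp5-like and 2.76, 6.64 and 2.00 CPM in CA3-like nuclei. Mossy-like nuclei had at most 1 UMI of the gene in any mouse. At 1000 UMIs per nucleus, 41.9 and 39.1% of Cajal-Retzius-like nuclei of mice 1 and 3 and 17.5, 10.5 and 17.2% of Pvalb-like nuclei of mice 1, 2 and 3 had a UMI, against 0.490, 1.87 and 0.169% of oligodendrocyte-like nuclei. The shares without thinning were 79.1 and 91.3% in Cajal-Retzius-like nuclei, 89.7, 27.2 and 93.1% in Pvalb-like nuclei and 1.46, 3.16 and 1.52% in oligodendrocyte-like nuclei. The median depth was 4030.0 and 8698 UMIs in Cajal-Retzius-like and 16136, 1955 and 41340.0 UMIs in Pvalb-like nuclei.

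Cacna2d3, an alpha2delta subunit without high affinity for gabapentin, was highest in CA2-like nuclei, at 2246, 1958 and 2192 CPM, and did not overlap with any other class. Mossy-like nuclei held 1498, 1645 and 1876 CPM and Sst-like nuclei 1649, 1628 and 1609.9 CPM, nearly equal values in the 3 mice. Lamp5-like nuclei held 119, 316 and 86.7 CPM, Pvalb-like nuclei 387, 472 and 214 CPM and granule-like nuclei 295, 446 and 297 CPM. The ranges of these 3 neuronal classes overlapped that of oligodendrocyte-like nuclei, 131, 399 and 224 CPM. At 1000 UMIs, 10.3, 31.4 and 10.5% of Lamp5-like nuclei had a UMI, against 68.2, 72.1 and 73.3% of Sst-like and 12.2, 33.2 and 18.6% of oligodendrocyte-like nuclei, so that Lamp5-like nuclei lay below oligodendrocyte-like ones. Without thinning the shares were 45.8, 52.5 and 52.6% in Lamp5-like, 96.03, 89.3 and 98.7% in Sst-like and 29.8, 46.4 and 64.6% in oligodendrocyte-like nuclei.

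**Figure D2:**
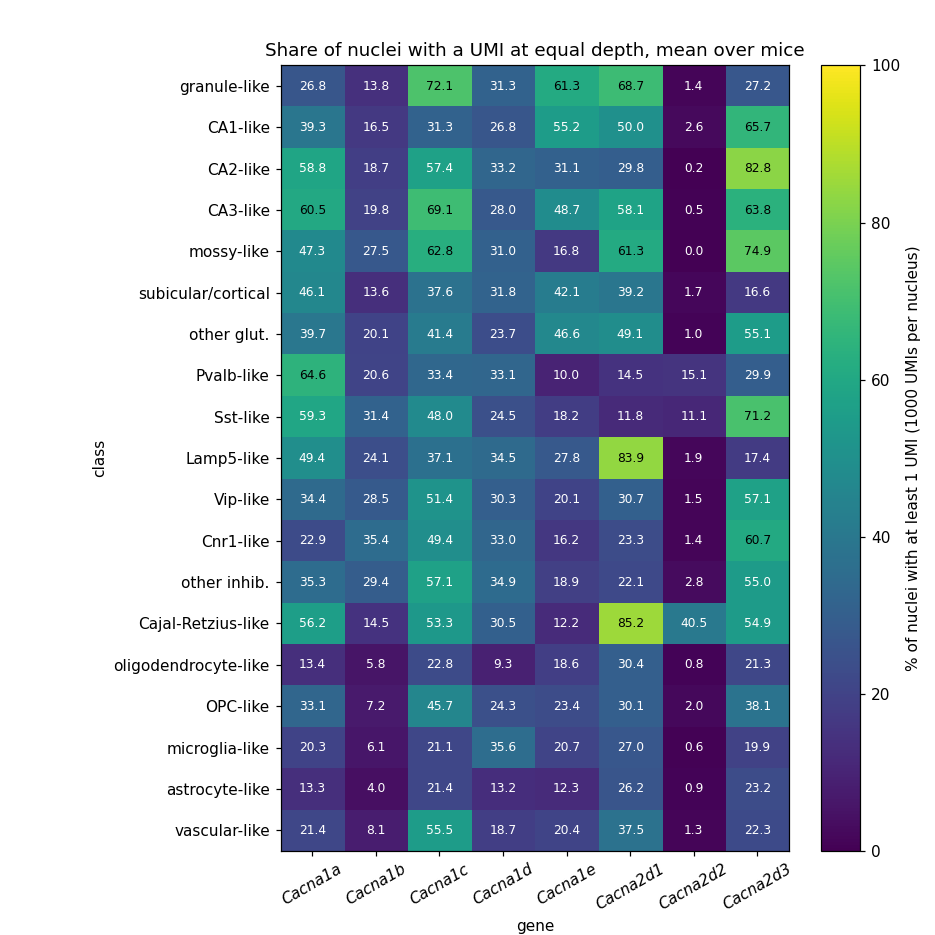
Share of nuclei with at least 1 UMI of each gene (columns) in each class (rows) after every nucleus was thinned to 1000 UMIs, as the mean over mice in percent. The oligodendrocyte-like row is the one the text sets beside the neuronal classes. Cacna2d2 is at or above 10% in the Cajal-Retzius-like, Pvalb-like and Sst-like rows and below 3% in all others.

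Neuron-like nuclei were compared with glia-like nuclei (oligodendrocyte-, OPC-, microglia- and astrocyte-like) to ask which subunits set these neurons apart. Cajal-Retzius-like nuclei, the class with the highest Cacna2d1 and Cacna2d2 means, and vascular-like nuclei were in neither pool. A gene was called when edgeR's quasi-likelihood test, with mouse as a block, gave an adjusted p under 0.05 over all genes tested and a fold of at least 2. Of the 8 genes 6 passed in the neuron-like direction and none in the other, where of 17410 genes 10.2% were called higher, 15.1% lower and 25.3% in either direction. TMM scaling gave 1771 genes higher and 2636 lower, and library-size scaling 1174 higher and 3603 lower. Cacna1a averaged 577 ± 74.9 CPM in neuron-like nuclei and 205 ± 118 CPM in glia-like nuclei (SD, n = 3 each), and its log2 fold change was 2.03 ± 0.39 (SE, edgeR adjusted p = 0.03). For Cacna1b the change was 2.30 ± 0.53 (adjusted p = 0.0388), for Cacna1c 1.80 ± 0.45 (adjusted p = 0.0445), and for Cacna2d3 2.02 ± 0.40 (adjusted p = 0.0303). Cacna2d1 and Cacna2d2 were called at 1.63 ± 0.43 and 1.48 ± 0.37 (adjusted p = 0.0485 and 0.0439). For Cacna2d2 the groups overlapped, with 23.5, 25.9 and 13.8 CPM in neuron-like and 10.5, 18.5 and 4.16 CPM in glia-like nuclei. Its OPC-like level was 141.8, 93.9 and 62.4% of the neuron-like level of mice 1, 2 and 3. Cacna1e, at 2.27 ± 0.62, and Cacna1d, at 0.94 ± 0.31, were not called (adjusted p = 0.0517 and 0.0762). Cacna1e was called in 7 of 11 alternatives, including DESeq2 and RLE scaling, and Cacna1d in 1, without mouse 2. Cacna2d2 was not called without the mouse block (adjusted p = 0.0869) and Cacna1e was, so that the count stayed at 6. Cacna2d1 was not called in the coarser clustering (adjusted p = 0.0517), and Cacna1c, Cacna2d1 and Cacna2d2 were not called when thinned to 1000 UMIs.

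The mice differed in this comparison. In CPM, before TMM scaling, mouse 2 reached 2-fold for none of the 8 genes. Its log2 ratios ran from 0.22 (Cacna1d) to 0.965 (Cacna2d3), with 0.518 for Cacna1c, 0.422 for Cacna2d1 and 0.48 for Cacna2d2. Cacna1a held 606, 634 and 492 CPM in neuron-like nuclei of mice 1, 2 and 3, against 147, 340.5 and 128 CPM in glia-like nuclei. Cacna1e held 720.4, 666 and 737 CPM in neuron-like nuclei, against 123, 482 and 129.6 CPM in glia-like nuclei. The groups overlapped for neither gene. Glia-like levels of mouse 2 were the highest of the mice for all 8 genes, as were its glutamatergic marker levels there, and the part of that RNA in the result was not tested. Without mouse 2 all 8 genes were called. Without mouse 1 or without mouse 3 edgeR called no gene of the whole table, while 4313 and 5521 genes had an unadjusted p under 0.05, 4 of the 8 genes each time, and DESeq2 on all mice called 5667. In these fits the log2 fold change of Cacna1a was 1.87 or 1.72. Scaling by total counts alone gave 1174 genes higher and 3603 lower, against 1771 and 2636 with TMM, shifted the median of all genes by -0.39 on the log2 scale and the values of the 8 genes with it, and Cacna1a then stood at 1.63 (adjusted p = 0.0208).

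**Figure D3:**
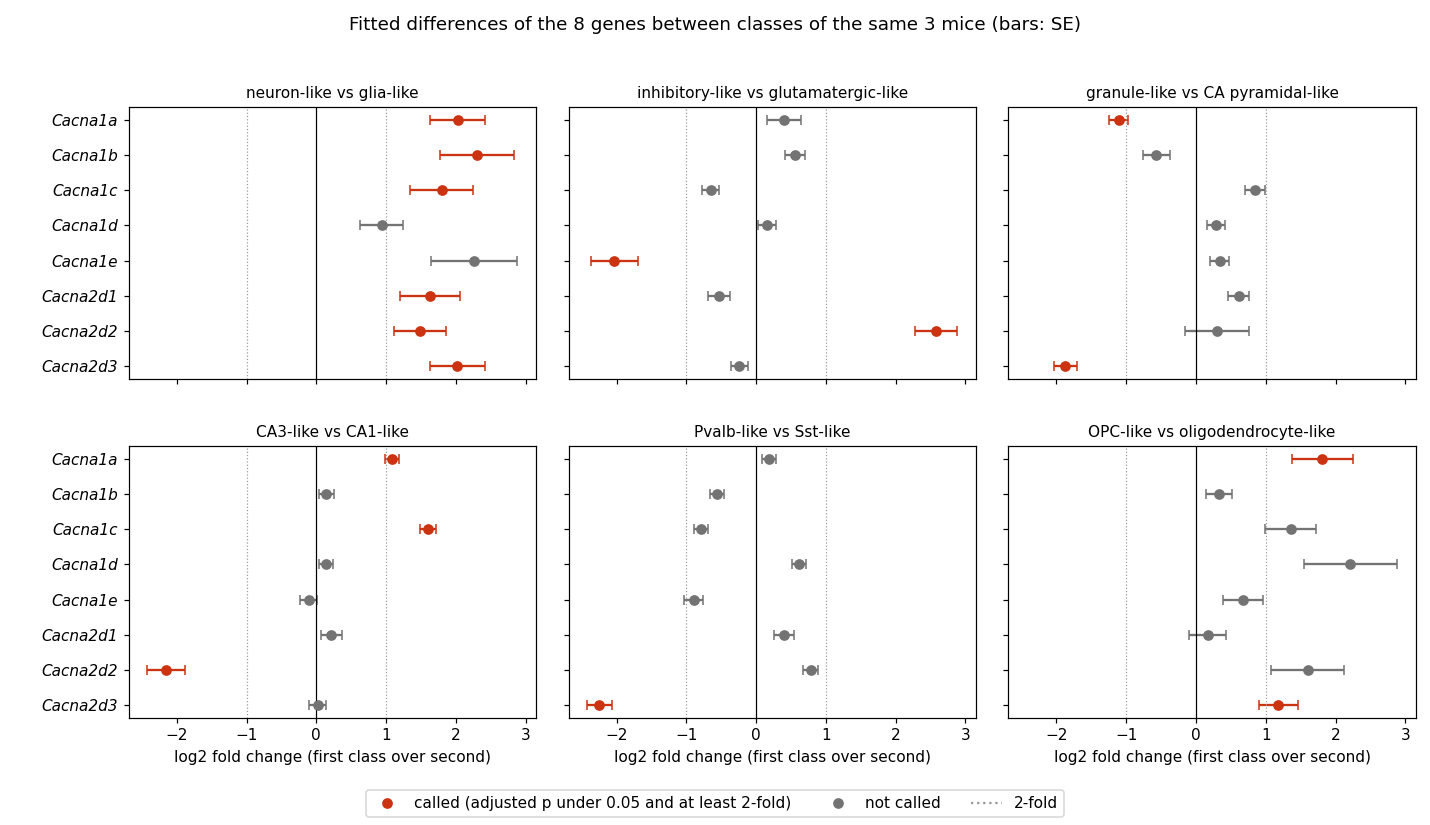
Log2 fold change and SE of the 8 genes in the 6 comparisons, each the first-named class over the second within the same 3 mice. Red points were called (adjusted p under 0.05 and at least 2-fold) and dotted lines mark 2-fold. The neuron-like against glia-like panel has the most called genes, and Cacna2d3 is called lower in the granule-like and Pvalb-like panels.

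Partner genes were described by list, each named gene with its log2 fold change ± SE in parentheses. In the same fit, 14 of 20 active zone and release genes were called higher in neuron-like nuclei and none lower, with a list median of 1.68 beside 0.0314 for all genes. They included Bsn, a large active zone scaffold (2.45 ± 0.56), Rimbp2, which tethers calcium channels (2.35 ± 0.56), and the priming factor Unc13a (2.34 ± 0.56). Syt1 (2.50 ± 0.66), a pan-neuron marker that was not used to name classes, was also among them. Among the beta subunits, which bind the alpha1 pore inside the cell, Cacnb1, Cacnb2 and Cacnb3 were called higher, at 1.47 ± 0.34, 1.87 ± 0.45 and 1.38 ± 0.27, and Cacnb4 was not called. Cacnb3 was not called with library-size scaling. Of the other pore and alpha2delta genes, the T-type pores Cacna1g, Cacna1h and Cacna1i were higher and Cacna2d4 was lower, at -2.80 ± 0.30. Cacng4, one of the AMPA receptor auxiliary subunits (TARPs), was lower at -3.19 ± 0.37 and Cacng2, Cacng3 and Cacng8 were higher. Of the alpha2delta ligands, 1 of 7 tested was called, the thrombospondin gene Thbs4, lower at -3.02 ± 0.68. Among calcium effectors and stores, Itpr2, an IP3 receptor, was lower at -3.78 ± 0.56 and 6 genes were higher, Ryr3 (2.31 ± 0.51) and the naming marker Camk2a (2.57 ± 0.64) among them. Of the 12 regulators, 10 were tested, of which 5 were higher, led by Stac (2.85 ± 0.74), and 1 was lower. None of these calls held without mouse 1 or without mouse 3, as given above, and the called genes named here were also called without mouse 2. Cacnb3, Rimbp2, Stac and Camk2a were not called without the mouse block. Thinning ended the calls of Cacna1h, Cacna1i, Cacnb2, Cacng3, Bsn, Syt1 and Camk2a, and the coarser clustering those of Cacnb1, Syt1, Stac and Thbs4.

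**Figure D4:**
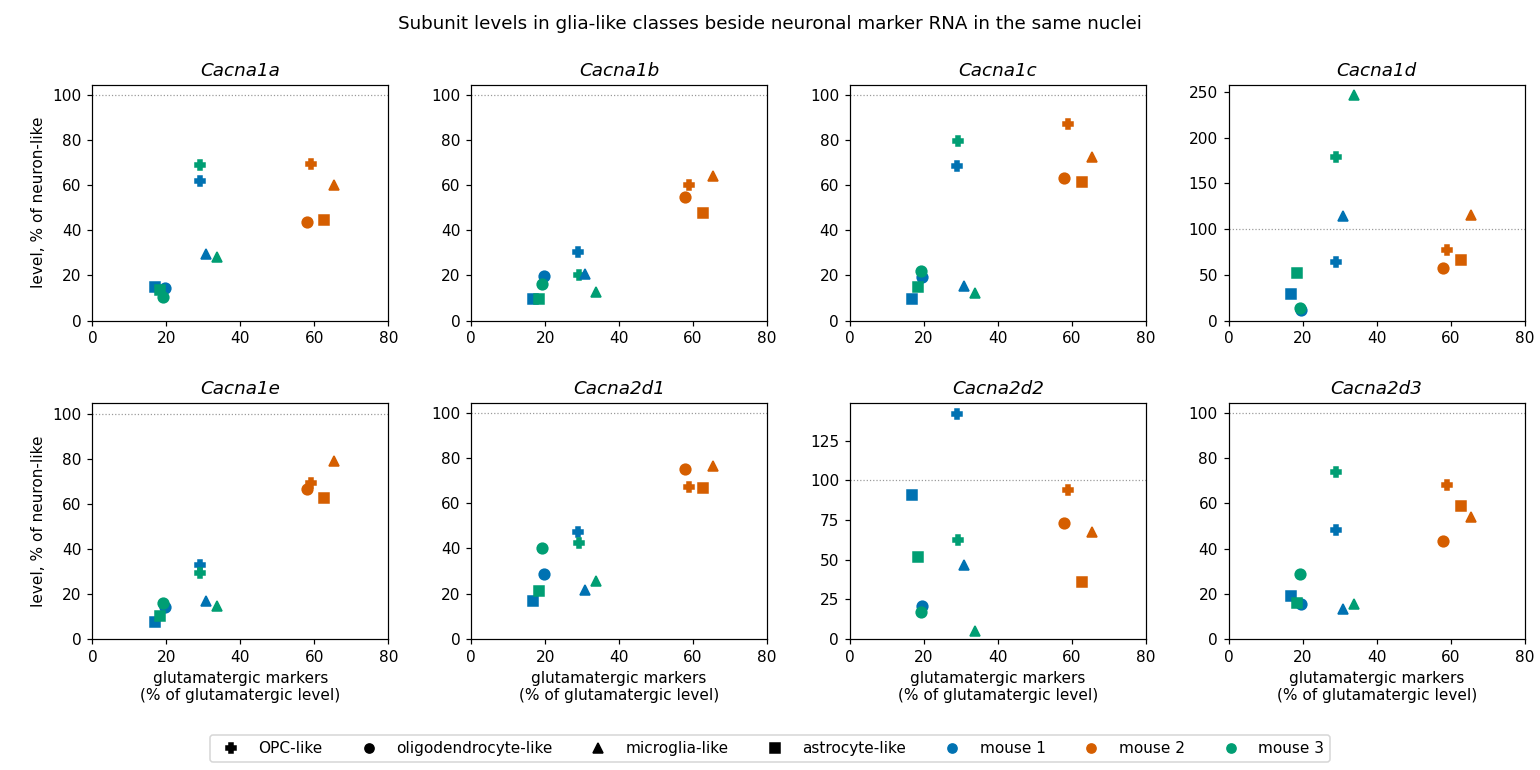
Level of each gene in 4 glia-like classes as a percentage of its neuron-like level in the same mouse (vertical axis) against the summed glutamatergic markers in those nuclei, as a percentage of their glutamatergic-like level (horizontal axis). Symbols stand for classes and colours for mice. Mouse 2 lies to the right in every class, and Cacna1d in microglia-like nuclei lies above 100% in all 3 mice.

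Inhibitory-like and glutamatergic-like nuclei differed in 2 of the 8 genes, where 14.9% of 16342 genes were called, 7.97% higher and 6.93% lower. Cacna2d2 was higher in inhibitory-like nuclei, with 94.2, 54.9 and 75.9 CPM in mice 1, 2 and 3, against 13.9, 15.4 and 6.97 CPM in glutamatergic-like nuclei. The groups did not overlap, and the log2 fold change was 2.57 ± 0.30 (SE, edgeR adjusted p = 0.00632). Cacna1e was lower, with 167, 398 and 140.5 CPM in inhibitory-like nuclei, against 795, 762 and 802 CPM in glutamatergic-like nuclei. Its change was -2.03 ± 0.34 (adjusted p = 0.0135), and it was -1.86 (adjusted p = 0.0758) and no longer called without mouse 1. The inhibitory-like nuclei of mouse 2, highest in Cacna1e, were also highest in glutamatergic markers, as given above, and the part of that RNA was not tested. Cacna1b (0.56 ± 0.15, adjusted p = 0.0432) and Cacna1c (-0.65 ± 0.12, adjusted p = 0.0192) passed the adjusted p but not the fold. Cacna1a (0.40 ± 0.24), Cacna1d (0.15 ± 0.12), Cacna2d1 (-0.54 ± 0.16) and Cacna2d3 (-0.24 ± 0.12) passed neither. The Cacna2d1 value pools Lamp5-like nuclei with Sst-like and Pvalb-like nuclei, which lie at opposite ends of its order. The Cacna2d2 value also pools unlike classes, with means of 152 CPM (Pvalb-like) and 90.6 CPM (Sst-like). Means of the remaining inhibitory classes were 29.2 (other inhibitory), 21.6 (Cnr1-like, mice 1 and 2), 13.1 (Vip-like) and 12.4 CPM (Lamp5-like). Glutamatergic class means ran from 0.652 CPM (mossy-like) to 16.8 CPM (granule-like), above the Vip-like and Lamp5-like means.

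Among the partners, the gamma and TARP list had 3 of 7 tested genes higher in inhibitory-like nuclei, Cacng4 (4.38 ± 0.49), Cacng5 (2.00 ± 0.28) and Cacng2 (1.27 ± 0.24), and Cacng6 lower (-2.14 ± 0.45). Of 20 release genes 2 were higher, Syt2, the fast calcium sensor of Pvalb terminals (2.62 ± 0.13), and Rims3 (2.43 ± 0.16), and 3 were lower, Syt7 (-1.29 ± 0.17) and Unc13b (-1.23 ± 0.12) among them. Of calcium effectors and stores, 5 were lower, including the ryanodine receptors Ryr1, Ryr2 and Ryr3, at -2.45 ± 0.47, -1.29 ± 0.16 and -2.23 ± 0.35, and Itpr2 was higher. Among the regulators Rem2, a small GTPase that inhibits these channels, was lower (-1.87 ± 0.25), as was Stac (-1.84 ± 0.29), while Stac2 (1.34 ± 0.12) and Akap7 were higher. The T-type pore Cacna1h (-1.61 ± 0.26) and the beta subunit Cacnb2 (-1.14 ± 0.17) were lower, and the ligand Thbs2 was higher. Without mouse 1 the calls of Cacna1h, Cacnb2, Cacng2, Cacng5, Cacng6, Syt7, Stac, Ryr1, Ryr2, Ryr3 and Thbs2 were lost, without mouse 3 those of Cacng2, Cacng6, Akap7, Itpr2 and Thbs2, and without mouse 2 that of Thbs2. Without the mouse block Cacnb2, Cacng6, Unc13b, Rem2, Itpr2 and Thbs2 were not called, and when thinned Cacnb2, Cacng5, Akap7, Ryr1 and Itpr2 were not. With doublets kept Cacnb2 and Akap7 were not called, and without the low-count filter Akap7 was not.

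Granule-like nuclei were compared with CA pyramidal-like nuclei (CA1-, CA2- and CA3-like). Of the 8 genes 2 were called, both lower in granule-like nuclei, where 18.2% of 16187 genes were called, 6.14% higher and 12% lower. Cacna2d3 held 295, 446 and 297 CPM in granule-like nuclei of mice 1, 2 and 3, against 1288, 1310.0 and 1125 CPM in CA pyramidal-like nuclei, a log2 fold change of -1.87 ± 0.17 (SE, edgeR adjusted p = 0.000476). Cacna1a held 353, 402 and 243 CPM in granule-like nuclei, against 800.0, 769 and 558 CPM in CA pyramidal-like nuclei, a change of -1.11 ± 0.14 (adjusted p = 0.00172). The groups overlapped for neither gene, and both were called in each of the 11 alternatives. The pool joins unlike classes for Cacna1a. CA1-like nuclei held 581, 468 and 415 CPM, less than 2-fold above granule-like nuclei in each mouse. CA2-like nuclei held 1199, 906 and 794 CPM and CA3-like nuclei 1225, 1021 and 771 CPM. CA1-like nuclei were the most numerous of the pool in mice 1 and 3, and CA3-like nuclei in mouse 2. Granule-like nuclei were not tested against CA1-like nuclei alone. Cacna1c (0.84 ± 0.15, adjusted p = 0.00709) and Cacna2d1 (0.61 ± 0.16, adjusted p = 0.0292) were higher by less than 2-fold. For Cacna1c the pool joins CA1-like nuclei, at 376, 395 and 538 CPM, with CA3-like nuclei, at 1188, 1162 and 1428 CPM. Cacna1b (-0.57 ± 0.19), Cacna1d (0.29 ± 0.13) and Cacna1e (0.34 ± 0.13) did not pass. Cacna2d2 held 19.99, 26.6 and 3.84 CPM in granule-like nuclei, against 10.6, 11.2 and 8.81 CPM in CA pyramidal-like nuclei, higher in 2 mice and lower in mouse 3, and its 0.30 ± 0.46 did not pass (adjusted p = 0.672). Without mouse 3 it was called at 1.05.

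Several partners also differed. The calcium release channel genes Itpr1 (-2.97 ± 0.19), Itpr2 (-2.34 ± 0.21) and Ryr3 (-2.48 ± 0.15) and the kinase gene Camk4 (-3.06 ± 0.49) were lower in granule-like nuclei, in a list with 2 genes higher and 4 lower of 16 tested. Of the 10 regulators tested 4 were lower, with Stac at -3.56 ± 0.30, Rem2 at -2.99 ± 0.22 and Stac2 at -2.30 ± 0.22, and 2 were higher, with the channel inhibitor Gem at 2.33 ± 0.40. The T-type pore Cacna1i was lower (-3.30 ± 0.22) and Cacna2d4 was higher (2.78 ± 0.56). The thrombospondin gene Thbs1, a ligand of the Cacna2d1 protein, was lower (-3.43 ± 0.29). Of 19 release genes tested, Unc13b (-2.31 ± 0.30) and Stx1a (-1.53 ± 0.14) were lower and Syt7 (1.03 ± 0.17) was higher. Cacng5 was lower (-3.08 ± 0.45), but is a marker by which CA2-like nuclei were named, and Cacng3 was higher. The beta subunit Cacnb2 was lower at -1.02 ± 0.16. Leaving out mouse 1 ended the calls of Cacna2d4 and Cacnb2, leaving out mouse 2 those of Cacnb2 and Cacng3, and leaving out mouse 3 that of Syt7. Without the mouse block Cacnb2, Cacng3, Gem and Thbs1 were not called. Cacnb2 lay at the 2-fold limit and was also not called with RLE scaling, with DESeq2 and with doublets kept, and Cacng3 was not called when thinned.

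CA3-like and CA1-like nuclei differed in 3 of the 8 genes, where 9.68% of 14201 genes were called, 5.3% higher and 4.38% lower. In CA3-like nuclei the CA1 markers summed to 58.9, 56.4 and 89.1% of their CA1-like level in mice 1, 2 and 3. In CA1-like nuclei the CA3 markers summed to 9.5, 8.9 and 12.6% of their CA3-like level. Cacna1c held 1188, 1162 and 1428 CPM in CA3-like nuclei of mice 1, 2 and 3, against 376, 395 and 538 CPM in CA1-like nuclei, a log2 fold change of 1.60 ± 0.11 (SE, edgeR adjusted p = 0.000641). Cacna1a held 1225, 1021 and 771 CPM in CA3-like nuclei, against 581, 468 and 415 CPM in CA1-like nuclei, a change of 1.09 ± 0.11 (adjusted p = 0.00165). Both were higher in CA3-like nuclei in all 3 mice with no overlap. Cacna2d2 was lower at a low level, with 2.76, 6.64 and 2.00 CPM in CA3-like nuclei, against 14.8, 16.96 and 13.5 CPM in CA1-like nuclei, and its change was -2.15 ± 0.27 (adjusted p = 0.00376). Only 18, 23 and 24 UMIs in CA3-like nuclei stand behind it. These 3 calls held when any mouse was left out. Without the mouse block the adjusted p was 0.0768 for Cacna1c and 0.0525 for Cacna2d2. Thinned to 1000 UMIs, Cacna1a stood at 0.98, just under 2-fold, and Cacna2d2 had too few counts to be tested. The log2 fold changes of the other 5 genes were 0.14 ± 0.11 for Cacna1b, 0.14 ± 0.10 for Cacna1d, -0.11 ± 0.12 for Cacna1e, 0.22 ± 0.15 for Cacna2d1 and 0.02 ± 0.12 for Cacna2d3, with adjusted p of 0.392 or more. The sign of the Cacna2d3 value, near 0, turned with library-size scaling, to -0.036.

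Of 18 release genes tested edgeR and DESeq2 called 0 between CA3-like and CA1-like nuclei, with 13 at an unadjusted p under 0.05 in edgeR, and of 4 beta subunits 0, with 1 at that p. Thbs1 was lower in CA3-like nuclei (-4.70 ± 0.33), as were Stac (-3.66 ± 0.53), Itpr1 (-2.29 ± 0.11), Itpr2 (-2.03 ± 0.27), Camk2g (-1.15 ± 0.14), the T-type pore Cacna1g (-1.23 ± 0.18) and Cacng3 (-1.07 ± 0.12). Cacng2, the TARP stargazin, was higher (2.13 ± 0.13), as were Camk4 (1.25 ± 0.14) and Stac2 (1.20 ± 0.13). None of these calls was lost when a mouse was left out, in the fits where the gene was tested. Without the mouse block only Cacng2, Stac2, Itpr1 and Itpr2 of these 10 were called. Thinning ended the call of Cacna1g, and keeping doublets that of Camk2g.

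Pvalb-like and Sst-like nuclei, the basket and dendrite-targeting interneuron types, differed in 1 of the 8 genes, where 6.41% of 11912 genes were called, 3.05% higher and 3.36% lower. Cacna2d3 held 387, 472 and 214 CPM in Pvalb-like nuclei of mice 1, 2 and 3, against 1649, 1628 and 1609.9 CPM in Sst-like nuclei. The groups lay far apart, the log2 fold change was -2.25 ± 0.18 (SE, edgeR adjusted p = 5.7e-06), and it was called in each of the 11 alternatives, between -2.47 and -1.68. Of the other genes 5 passed the adjusted p with a change under 2-fold. Cacna2d2 (0.78 ± 0.11, adjusted p = 0.00049) and Cacna1d (0.61 ± 0.10, adjusted p = 0.00103) were higher in Pvalb-like nuclei. Cacna1e (-0.89 ± 0.14, adjusted p = 0.000731), Cacna1c (-0.79 ± 0.10, adjusted p = 0.000192) and Cacna1b (-0.56 ± 0.10, adjusted p = 0.00239) were lower. Without mouse 2 Cacna1e was called at -1.08. Cacna1a (0.18 ± 0.10) and Cacna2d1 (0.40 ± 0.14) did not pass.

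Of the 20 release genes 3 were called in this pair. Syt2 was higher in Pvalb-like nuclei (3.92 ± 0.34), and Unc13c (-3.55 ± 0.24) and Rims3 (-1.97 ± 0.19) were lower. Cacng4 (-1.53 ± 0.25), Stac (-1.79 ± 0.37) and Cacna1g (-1.04 ± 0.21) were lower, and Itpr1 (1.34 ± 0.11) and Itpr2 (1.12 ± 0.19) were higher. Of the 4 beta subunits edgeR and DESeq2 called 0, with 4 at an unadjusted p under 0.05 in edgeR, and of the 5 ligands tested 0, with 3 at that p. Without mouse 1 the calls of Cacna1g and Itpr2 were lost, and without the mouse block those of Cacna1g, Cacng4, Stac and Itpr2. With doublets kept Cacna1g, Stac and Itpr2 were not called, and Cacna1g was also lost when thinned and without the low-count filter.

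OPCs, the precursors of oligodendrocytes, receive synapses and are known to express voltage-gated calcium channels. OPC-like nuclei were compared with oligodendrocyte-like nuclei, and 2 of the 8 genes were called, both higher in OPC-like nuclei, where 16.1% of 12419 genes were called, 8.67% higher and 7.44% lower. Cacna1a held 375, 439 and 340.3 CPM in OPC-like nuclei of mice 1, 2 and 3, against 87.3, 277 and 50.5 CPM in oligodendrocyte-like nuclei, a log2 fold change of 1.81 ± 0.44 (SE, edgeR adjusted p = 0.0425). Cacna2d3 held 405, 629 and 576 CPM in OPC-like nuclei, against 131, 399 and 224 CPM in oligodendrocyte-like nuclei, a change of 1.18 ± 0.28 (adjusted p = 0.0401). Cacna1d held 291, 238 and 425 CPM in OPC-like nuclei, against 51.05, 177 and 31.6 CPM in oligodendrocyte-like nuclei, and its larger change of 2.21 ± 0.67 did not pass (adjusted p = 0.0756). The levels of these genes were higher in OPC-like nuclei in all 3 mice, by least in mouse 2. Glutamatergic markers summed to 29.0, 59.0 and 29.1% of their level in glutamatergic-like nuclei in OPC-like nuclei and to 19.6, 57.9 and 19.2% in oligodendrocyte-like nuclei, and their part in the difference was not tested. Cacna1c (1.36 ± 0.37), Cacna2d2 (1.60 ± 0.52), Cacna1e (0.68 ± 0.29), Cacna1b (0.33 ± 0.19) and Cacna2d1 (0.17 ± 0.27) did not pass. Without mouse 1 or without mouse 3 edgeR called 0 of the 8, with 2 at an unadjusted p under 0.05 each time, and without mouse 2 it called 6. It called 0 in the coarser clustering and 0 without the mouse block, with 5 and 4 at that p, while DESeq2 on all mice called 5. Cacna2d3 was also not called when thinned or with doublets kept.

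From the list of alpha2delta ligands, the receptor gene Lrp1 (3.16 ± 0.62) and Nrxn2 (1.96 ± 0.25), which encodes a presynaptic adhesion protein, were higher in OPC-like nuclei. Cacng4 (7.26 ± 0.86), Unc13c (5.48 ± 0.32), Itpr2 (3.53 ± 0.24) and the scaffold Cask (1.74 ± 0.26) were higher too. The calls of Lrp1, Nrxn2 and Cask were lost without mouse 1 and without mouse 3, and the called genes named here were also called without mouse 2. Of the 4 beta subunits, the 4 other pore and alpha2delta genes and the 9 regulators tested, edgeR and DESeq2 called 0, with 2, 0 and 0 at an unadjusted p under 0.05 in edgeR.

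The genes whose pattern over classes was most like that of each gene were sought among 9932 genes over 54 class sums of 19 classes, by Pearson's r of log2(CPM + 1) after removal of each mouse's mean. The sums of a mouse share a library and depth, and r is a description across them. Cacna1a was nearest to Gm16183 (r = 0.928), which lies inside it on the opposite strand, then to Ica1 (0.82) and Syn1 (0.815). Cacna1b was nearest to 3 long noncoding RNAs of neurons, Rian (0.94), Mirg (0.939) and Meg3 (0.927). Cacna1c was nearest to the active zone gene Erc2 (0.89), Nkain3 (0.826) and Ppfia2 (0.819), and Cacna1e to the kinase gene Prkce (0.834), Icam5 (0.827) and Plk2 (0.824). The nearest genes of Cacna1d were Slc9a7 (0.784), Trio (0.779) and Prdm11 (0.768), and those of Cacna2d2 Klhl32 (0.781), 4930445B16Rik (0.735) and Adcy8 (0.727). Cacna2d1 was nearest to Gm3510 (0.812), a noncoding gene 1.3 kb away, then to Nfib (0.704) and Clstn2 (0.65). Cacna2d3 was nearest to Lrtm1 (0.911) and Gm48003 (0.91), both inside it on the opposite strand, and 4930509J09Rik (0.763). Where the likest gene overlaps, shared reads and shared expression cannot be told apart. Among the 8 genes themselves, the likest pair was Cacna1a and Cacna1b (r = 0.731) and the least like Cacna1e and Cacna2d2 (r = -0.322), while Cacna2d1 and Cacna2d3 stood at -0.087.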

How the data were processed

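The values deposited by the authors are unnormalized UMI counts. Per the file headers, Cell Ranger 7.0.0 was used for mice 1 and 2 and 7.1.0 for mouse 3. The build is mm10, per the submitters' processing notes. Nuclei were sorted by propidium iodide staining and run on the 10x 3′ platform, per the labels' protocols. Intron and strand settings are not given in the sources used here.

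Barcodes under 500 genes or over 5% mitochondrial UMIs were dropped (242, 703 and 1 in mice 1, 2 and 3). Scrublet (scanpy 1.11.5) called 731, 1385 and 257 doublets; in mouse 2 its own threshold called 0, so the expected rate of 0.8% per 1000 nuclei was used, a choice made after that result. Leiden clustering (leidenalg 0.10.2, resolution 1.5, 3000 variable genes, 30 components, 20 neighbours) left out the 83 listed genes. Clusters were named with at least 3 supporting markers at 2-fold; inhibitory-like and CA3-like nuclei were subclustered for types. The scoring rules were set after clusters were seen. The members and lists were chosen with earlier results of these data known. Of the 75 listed partner genes, 5 are also markers. Camk2a and Cacng5 were used in naming, and the pan-neuron markers Snap25, Syt1 and Nrxn3 were not.

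Counts were summed per mouse and class (at least 20 nuclei) and fitted with edgeR 4.0.16 (R 4.3.3) by the quasi-likelihood test with TMM scaling, filterByExpr and a mouse block. p-values were adjusted over all genes of a fit (Benjamini-Hochberg), and SEs came from the F statistic. The block is used since both sums come from 1 animal; after removal of class means they correlated across genes at 0.36, 0.07 and 0.343 for neurons against glia and at 0.308 or more elsewhere. Classes were defined by expression, so counts over all genes are context. Nothing beyond the mouse labels shows separate litters. With the block, p-values rest on how the class difference varies over these 3 mice, with variance estimates shared across genes. The fit was also run on simulated counts with a fixed dispersion and the same class effect in every mouse. That run cannot show how the fit behaves where mice differ in the class effect. Named were all 8 genes in each comparison, up to 4 called genes of each list by size of change, and the 3 likest genes; 1 listed gene is not reported here. Alternatives were RLE scaling, DESeq2 1.42.0, no count filter, each mouse left out, no block, thinning to 1000 UMIs, resolution 1.0, doublets kept and, added after the data were seen, library-size scaling. Genes of the deposited counts named here were matched by symbol; promoters are RefSeq's on GRCm38.p6, found for 7 of the 8 genes.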

Additional observations from a re-analysis of the deposited data

Results flagged for a closer look

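The 4708 nuclei of mouse 2 that carried no class name entered no comparison, yet held counts of all 8 genes. Their levels were 489 CPM for Cacna1a, 168 CPM for Cacna1b, 684 CPM for Cacna1c, 271 CPM for Cacna1d, 723 CPM for Cacna1e, 675 CPM for Cacna2d1, 21.6 CPM for Cacna2d2 and 769.97 CPM for Cacna2d3. For 7 of the 8 genes these values lay between those of neuron-like and glia-like nuclei of the same mouse. Cacna1e was the exception, above the 666 CPM of neuron-like and the 482 CPM of glia-like nuclei. The largest unnamed cluster, with 2691 nuclei of mouse 2, was led by Rplp1, Rps29 and Chchd2. How much of the RNA in the unnamed nuclei came from other cells was not tested.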

How the results depend on the processing

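With RLE and library-size scaling the total counts of called genes stayed within 1.5 times, while library-size scaling gave 1174 genes higher in neuron-like nuclei, against 1771 with TMM scaling. Leaving out 1 mouse gave 0 to 6627 called genes and 0 to 8 of the 8 described genes for neuron-like against glia-like nuclei, 907 to 2787 genes and 1 to 2 of the 8 for inhibitory-like against glutamatergic-like, 2516 to 2737 genes and 2 to 3 of the 8 for granule-like against CA pyramidal-like, 910 to 1371 genes and 3 of the 8 for CA3-like against CA1-like, 629 to 803 genes and 1 to 2 of the 8 for Pvalb-like against Sst-like, and 263 to 3232 genes and 0 to 6 of the 8 for OPC-like against oligodendrocyte-like nuclei. Each such fit rests on 2 mice. The higher neuron-like and OPC-like ends were reached without mouse 2. Without the mouse block the called genes numbered 1222, 1727, 341 and 208 for inhibitory-like, granule-like, CA3-like and Pvalb-like nuclei, and of the 8 genes 1 was called for CA3-like and 0 for OPC-like nuclei; other totals stayed within 1.5 times, though for neuron-like nuclei Cacna1e replaced Cacna2d2 among the called. Thinned to 1000 UMIs the called genes numbered 2323, 963, 1126, 395, 175 and 1246 in the order above, and of the 8 genes 3, 1 and 3 were called for neuron-like, CA3-like and OPC-like nuclei. For OPC-like nuclei the count of the 8 was 5 with DESeq2, 5 without the low-count filter, 0 at the coarser resolution and 1 with doublets kept; the cause was not tested. Values that changed sign were uncalled in the reported fit. Cacna2d2 in granule-like over CA pyramidal-like nuclei ranged from -0.14 to 1.05 with a mouse left out and stood at -0.42 thinned. Cacna2d3 in CA3-like over CA1-like nuclei ranged from -0.12 to 0.068 with a mouse left out and stood at -0.0019 without the count filter, -0.086 thinned and -0.036 with library-size scaling. Cacna2d1 in OPC-like over oligodendrocyte-like nuclei ranged from -0.039 to 0.36 with a mouse left out and stood at -0.040 thinned. Thinning moved 32 of 192 class levels beyond 1 SD, and resolution and doublets 7 each. Depth limits Cacna2d2 most, which had too few counts to be tested after thinning for CA3-like and OPC-like nuclei.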
